A study of Homo sapiens with 7 samples.

Results

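The nuclear-encoded oxidative phosphorylation subunits were taken by symbol: every gene named NDUFA, NDUFB, NDUFC, NDUFS or NDUFV with a number, and every gene whose symbol starts with UQCR, COX4 to COX8 or ATP5, was kept from the deposited read counts, without sites antisense to a gene. The rule used no measured value and found 79 of the 16044 genes listed in any of the 3 tables. They were 36 genes of complex I, 9 of complex III, 15 of complex IV and 19 of complex V, with NDUFA4 placed in complex IV, where it is now counted. Symbols are given as in the files, where the subunits of complex V carry their older names. The pattern also took in 7 genes that encode no subunit of these complexes. These are UQCRHL, an intronless copy of UQCRH, COX4NB, a subunit of the ER membrane protein complex, COX7A2L, an assembly factor of supercomplexes, ATP5S and the related ATP5SL, ATP5L2, a copy of ATP5L, and ATP5J2-PTCD1, a read-through gene listed at the same polyadenylation sites (PASs) as ATP5J2. Of the other members, COX7A1 was listed only in batch 1, and COX4I2, COX6A2 and COX8C were not listed in any table.

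Oxidative phosphorylation couples the oxidation of NADH and succinate to ATP synthesis in the inner mitochondrial membrane. Complex I passes electrons from NADH to ubiquinone, complex III passes them on to cytochrome c, complex IV reduces oxygen, and complex V, the ATP synthase, uses the resulting proton gradient. Mitochondrial DNA encodes some of the core proteins of complexes I, III and IV and a membrane part of the ATP synthase. The remaining subunits, those described here, are transcribed in the nucleus, and their mRNAs, many of them short and abundant in dividing cells, are cleaved and polyadenylated like other mRNAs. Several subunits exist as a ubiquitous form and a form of muscle, lung, testis or heart.

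siRNAs, either a control (siCtrl) or directed to 1 or 2 of the nuclear poly(A) polymerases (PAPs), were transfected into HEK293 cells, an embryonic kidney line. The 7 libraries were siCtrl, siStar-PAP, siPAPα and siPAPγ of batch 1, made by 3′READS, a double KD of PAPα and PAPγ by the same protocol, and siCtrl and siStar-PAP of batch 2, made by 3′READS+. The labels give no batch for the double KD. Each read of these protocols marks the 3′ end of a polyadenylated RNA, so a gene's level, given as RPM, the reads scaled to a common total of PAS-supporting (PASS) reads, does not depend on transcript length. Every condition had 1 library per batch, and siStar-PAP, siPAPα, siPAPγ and the double KD are compared with the same siCtrl library, so values from these 4 comparisons share their control. All conditions share an siRNA transfection in the same line, and nothing in the labels says whether the cells of the batches were separate cultures, so p-values measure only the spread between libraries, which may be technical. Sense reads per library ran from 2347192 to 16191098, and the PASS totals used for RPM from 4249376 to 25085659.

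TUT1, the gene of Star-PAP, had 83 reads in siCtrl of batch 1, against 2 in siStar-PAP, 228 in siPAPα, 83 in the library labelled siPAPγ and 168 in the double KD, and 6 and 4 reads in siCtrl and siStar-PAP of batch 2. PAPOLA, which encodes PAPα, had 71, 44, 12, 66 and 8 reads in the same order, and 45 and 34 in batch 2. PAPOLG, which encodes PAPγ, had 5, 28, 36, 15 and 6 reads, and 11 and 23 in batch 2. The log2 ratio to siCtrl was −5.91 for TUT1 in siStar-PAP (95% counting interval −8.98 to −4.01) and −3.70 and −4.00 for PAPOLA in siPAPα and the double KD. For PAPOLG in the library labelled siPAPγ it was 1.21 (−0.32 to 3.03), from 15 reads against 5 in siCtrl. This interval takes in both directions and the reads are too few to check the label, so this library is named by its label throughout. The study checked the knockdowns at the protein level by immunoblot. At the depth of batch 2 a change of TUT1 was not detectable (−0.34, −2.60 to 1.74), nor was one of PAPOLG in the double KD (−0.45, −2.43 to 1.60). All 9 marker genes listed for HEK293 were present in batch 1, KRT18 at 2648 RPM in siCtrl, and 3 of 10 markers of other cell types were listed.

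In siCtrl of batch 1 the members together made up 20109 RPM, or 2.01% of PASS reads, and over the 7 libraries their sum ran from 16642 RPM in siCtrl of batch 2 to 24044 RPM in siStar-PAP of batch 1. A few genes held most of this, since the 5 most read members accounted for 57.3% of the members' reads, 26 members were above 100 RPM and 12 below 10 RPM. COX7C, a small subunit of complex IV, stood at 3567 RPM, ATP5SL at 2939 RPM, NDUFS5, an accessory subunit of complex I, at 2030 RPM, and ATP5G2, which encodes the c subunit of the ATP synthase rotor, at 1696 RPM. UQCRQ, a small subunit of complex III, followed at 1289 RPM and NDUFA6 of complex I at 1046 RPM. COX7A2 of complex IV was at 716 RPM and UQCRH, the hinge protein of complex III, at 450 RPM. Median levels over the genes of a complex were 44.0 RPM for complex I, 80.4 for complex III, 30.1 for complex IV and 66.3 for complex V, although the encoded subunits stand in fixed proportion in the assembled complexes, with the c subunit repeated in the rotor ring.

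The ubiquitous form was read far more than the alternative form in the pairs that could be compared. COX7A1, the form of heart and skeletal muscle, had 2.10 RPM in siCtrl against 716 RPM of COX7A2, and COX6B2, the testis form, 0.350 RPM against 33.9 RPM of COX6B1. Of the 24 reads of COX7A1, 20 lay at a PAS outside annotated genes, and all 4 of COX6B2 at a PAS listed as intronic. The values of COX7A1 and COX6B2 may thus not stand for these forms. COX4I1 (354 RPM), COX6A1 (15.6 RPM) and COX8A (149 RPM) were listed without their alternative partners. Of the genes for the identical c subunit, ATP5G2 had 1696 RPM in siCtrl, ATP5G1 29.7 RPM and ATP5G3 17.5 RPM. NDUFA4 was nearly absent (0.263 RPM), and its listed PASs lie 204 to 376 nt past the nearest annotated transcript end, so that this value may not stand for the gene.

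Member genes had few PASs. In batch 1, 42 members (53.8%) had a single PAS against 29.5% of all genes, and 26 of 70 members with at least 50 siCtrl reads (37.1%) used 2 or more PASs for over 5% of their reads each, against 62.0% of all genes. PASs in 3′-most exons held 98.1% of the members' siCtrl reads and 95.0% of all reads. The PAS read most in each gene was scored for the polyadenylation signals AATAAA and ATTAAA on the transcribed strand in the 40 nt before the site. Of 68 members with at least 50 reads there, 69.1% had AATAAA, 22.1% had only ATTAAA and 8.82% had neither, against 65.1%, 17.0% and 17.9% of 7026 genes. Over all PASs in 3′-most exons, AATAAA preceded 56.6% of 182 member sites and 44.6% of 50607 sites. These shares are descriptions of the listed sites, with no test.

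The last 30 nt before the cleavage site are shown for members whose level the comparisons turn on, to show which signal precedes the site that was counted. Sequences are from the GRCh37 (hg19) reference, 5′ to 3′ on the transcribed strand, end at the PAS, and have the signal in capitals. Each of these sites but the intronic one of NDUFA1 lies in an annotated UTR of its gene, 0 nt from a transcript end.
NDUFB2, chr7:140406414-140406443, plus strand: tacaaATTAAAgtggcttggtcaagaatga
NDUFA3, chr19:54610239-54610268, plus strand: cacggctcccAATAAAaatgtgaaaaccaa
NDUFA1 intronic PAS, chrX:119005948-119005977, plus strand: acatccacaggttcactaacgggggcaagg
NDUFA1 3′-most PAS, chrX:119010596-119010625, plus strand: tagtgcttaataaaAATAAAatgaaaaaaa
NDUFB11, chrX:47001615-47001644, minus strand: agcacctaATTAAAggggctgaaagtctga
COX6A1, chr12:120878504-120878533, plus strand: gagatggcttaAATAAAtaacttaaattta
ATP5B, chr12:57031959-57031988, minus strand: ggtttccAATAAAatgtacacccctcagaa
ATP5G1, chr17:46973204-46973233, plus strand: ctttaccATTAAAcacaacgtttctctaaa
ATP5G2, chr12:54058954-54058983, minus strand: aaaagacaAATAAAtactgtattaataaga
The reads of NDUFA1 lay at different sites in the batches. All of them, 396 to 2254 per library, were at the intronic PAS in batch 1 and the double KD, 4648 nt before the annotated end and with neither signal, and 99.2% and 99.8% were at the 3′-most PAS in siCtrl and siStar-PAP of batch 2. Of 71 members with at least 20 reads in both siCtrl libraries, 11 had another most read PAS in batch 2 than in batch 1. The share over all genes was not counted, so whether this is particular to the members is not known.

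Next, each KD was compared with its siCtrl, to ask how the level of these mRNAs stood when a PAP was knocked down. Among genes with more than 50 reads in the pair, 7 of 74 members were past 2-fold lower in siStar-PAP and 4 past 2-fold higher, that is 9.46% and 5.41%, where 26.2% and 4.44% of 10079 genes were. In siPAPα, 9 were lower and 5 higher of 74 (12.2% and 6.76%), against 22.1% and 8.50% of all genes. The library labelled siPAPγ had 6 lower and 4 higher of 74 (8.11% and 5.41%), against 20.7% and 5.67%, and the double KD had 7 lower and 3 higher of 73 (9.59% and 4.11%), against 26.5% and 6.98%. In siStar-PAP of batch 2, 1 of 67 members was lower and 3 were higher (1.49% and 4.48%), against 11.7% and 3.55%. Members were thus past 2-fold lower in a smaller share than all genes in each comparison, and the share past 2-fold higher lay near the background. In a bulk library, fewer cells with a transcript and less RNA per cell cannot be told apart.

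The split of calls depended on the scaling. The tables hold 70.9% of a library's PASS reads in siCtrl of batch 1, 67.5% in siStar-PAP, 64.8% in siPAPα, 58.9% in the library labelled siPAPγ and 58.2% in the double KD, and the part of this in the split was not tested. With TMM factors, members lower and higher were 3 and 14 in siStar-PAP, 3 and 11 in siPAPα, 4 and 7 in siPAPγ as labelled, 2 and 7 in the double KD and 1 and 6 in batch 2, where 12.8% and 11.6%, 13.8% and 15.0%, 11% and 11.3%, 15.0% and 14.7%, and 8.33% and 5.95% of all genes were. DESeq2 size factors gave 3 and 14, 4 and 10, 4 and 7, 2 and 7, and 1 and 8 members, against 12.9% and 11.5%, 14.3% and 14.2%, 11.5% and 10.8%, 14.9% and 14.9%, and 7.97% and 6.27% of all genes. The totals of sense reads gave 7 and 5, 6 and 9, 4 and 7, 4 and 5, and 1 and 3 members, against 24% and 4.89%, 18.9% and 10.3%, 13.4% and 9.17%, 18.8% and 11.2%, and 12.3% and 3.35%. The distance of a member from the median of all genes is the same under every scaling and is used for the medians and for the comparison of the batches, while levels, log2 ratios and calls past 2-fold of single genes are on the RPM scale.

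The members' median log2 ratio was −0.13 in siStar-PAP (95% interval from order statistics −0.35 to 0.11) where that of all genes was −0.45, 0.12 in siPAPα (−0.13 to 0.27) against −0.26, and −0.12 in the library labelled siPAPγ (−0.28 to 0.07) against −0.33. It was −0.09 in the double KD (−0.44 to 0.11) against −0.38 and 0.34 in siStar-PAP of batch 2 (0.22 to 0.41) against −0.16. The members' median therefore lay 0.32, 0.38, 0.21, 0.30 and 0.50 above that of all genes, and the interval took in 0 in the double KD. Highly read genes as a whole were also above it, since the top 25% of genes by reads had medians of −0.30, −0.17, −0.24, −0.30 and −0.11. The members' interval took in the median of these genes in siStar-PAP, siPAPγ as labelled and the double KD, and lay above it in siPAPα and in batch 2. Above the all-gene median stood 53 of 74 members in siStar-PAP, 49 of 74 in siPAPα, 48 of 74 in siPAPγ as labelled, 45 of 73 in the double KD and 59 of 67 in batch 2.

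**Figure D1:**
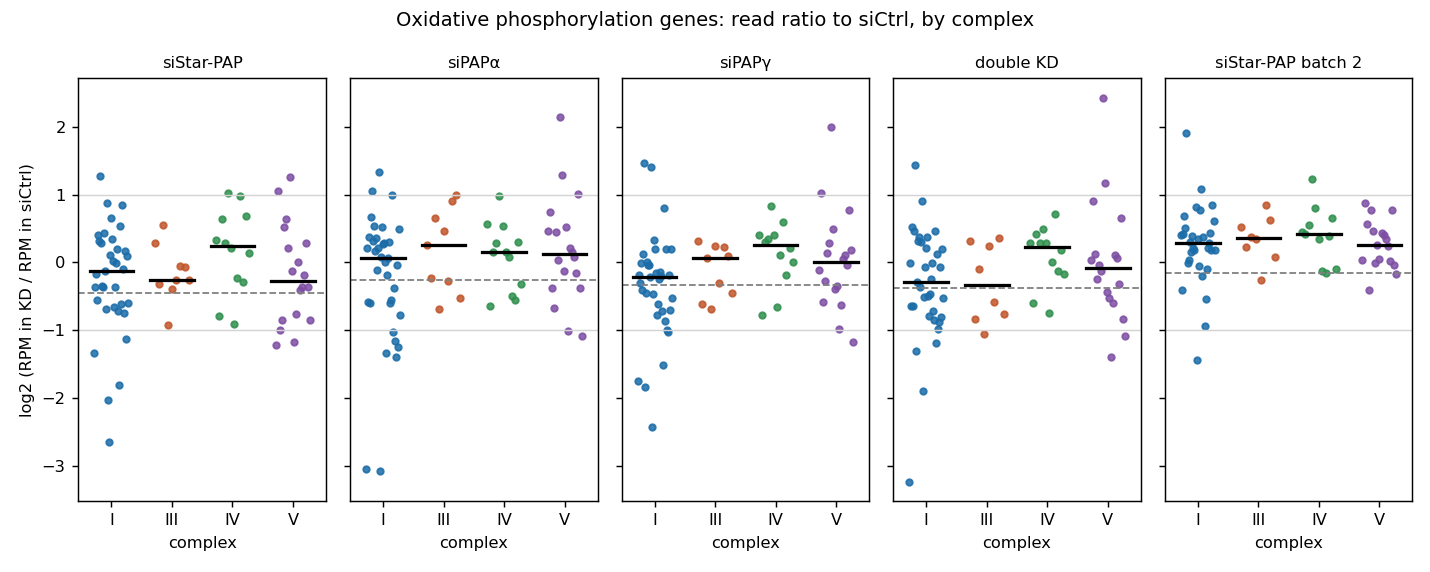
Log2 ratio of RPM, KD over siCtrl of the same table, for each member with more than 50 reads in the pair, by complex and comparison. Points are genes of 1 library pair, the black bar is the median of the complex, the dashed line the median of all genes and the grey lines mark 2-fold, and the complex IV medians lie 0.41 to 0.70 above the dashed line.

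By median, complex IV stood highest in 4 of the 5 comparisons, and complex III in siPAPα. The complexes' intervals from order statistics overlapped in each comparison, and the ranking was not tested. In log2 ratio, complex IV spanned −0.29 to 0.68 in siStar-PAP, −0.50 to 0.54 in siPAPα and −0.19 to 0.41 in siPAPγ as labelled. It spanned −0.17 to 0.42 in the double KD and −0.12 to 0.81 in batch 2. Of these intervals only that in siPAPα took in the all-gene median (−0.26). Complex IV here includes COX4NB and COX7A2L, which encode no subunit. Its median was 0.70, 0.41, 0.59, 0.62 and 0.59 above that of all genes in siStar-PAP, siPAPα, siPAPγ as labelled, the double KD and siStar-PAP of batch 2, with 10, 8, 10 and 10 of 12 genes and 11 of 11 genes above the all-gene median. In the same order complex I was at 0.31, 0.31, 0.12, 0.10 and 0.44, complex III at 0.19, 0.52, 0.40, 0.05 and 0.52, and complex V at 0.17, 0.38, 0.33, 0.30 and 0.42. Summed over genes, complex IV had 4992 RPM in siCtrl, against 7156 RPM in siStar-PAP, 6026 RPM in siPAPα, 5773 RPM in siPAPγ as labelled and 5568 RPM in the double KD, and 997 and 1276 RPM in batch 2. COX7C alone carried most of this sum outside batch 2, with 3567 RPM in siCtrl, 5717, 4405, 4165 and 4074 RPM in the KDs, but only 111 and 176 RPM in batch 2.

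Complex I, with 35 of the 74 members compared, held most of those past 2-fold lower, with 5, 7, 5 and 4 of 35 genes in the comparisons with siCtrl of batch 1 and 1 of 31 in batch 2, shares below those of all genes (26.2%, 22.1%, 20.7%, 26.5% and 11.7%). NDUFA1, a small membrane subunit needed for assembly, had 197 RPM in siCtrl, against 78.7 in siStar-PAP, 23.9 in siPAPα, 58.9 in siPAPγ as labelled and 21.1 in the double KD, all at the intronic PAS shown above. NDUFB11, a membrane arm subunit that is likewise encoded on the X chromosome, had 189 RPM in siCtrl and 46.5, 22.5, 35.2 and 50.5 RPM in the KDs. All 4 KDs were past 2-fold below siCtrl for these 2 genes and for no other member. Their log2 ratios in siPAPα were −3.05 (−3.18 to −2.92) for NDUFA1 and −3.07 (−3.20 to −2.93) for NDUFB11. In batch 2 siStar-PAP was above siCtrl for both, with 244 against 184 RPM of NDUFA1 and 78.6 against 44.6 RPM of NDUFB11, but only for NDUFB11, read at the same PAS in both batches, is this the same RNA end. The shared siCtrl library of batch 1 enters all 4 lower values.

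A lower value in particular KDs was found for another gene of complex I. NDUFA5, a subunit of the arm that reaches into the matrix, had 121 RPM in siCtrl, against 148 in siStar-PAP and 151 in siPAPα, but 33.8 in siPAPγ as labelled and 48.7 in the double KD, at log2 ratios of −1.84 (−1.99 to −1.69) and −1.31 (−1.44 to −1.19) in the latter 2. In batch 2 it had 28.9 RPM in siCtrl and 28.7 in siStar-PAP.

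Higher values in complex I were those of NDUFA3 and NDUFB10. NDUFA3, a membrane subunit, was the only member past 2-fold the same way in all 5 comparisons, with 2.10 RPM in siCtrl, against 5.08 in siStar-PAP, 4.38 in siPAPα, 5.81 in siPAPγ as labelled and 5.69 in the double KD, and 39.6 and 149 RPM in siCtrl and siStar-PAP of batch 2. Only 24 reads stand behind the siCtrl value of batch 1, of which 13 lay at the annotated end shown above and the others at PASs listed as intronic. At that end the KDs had 71, 106, 79 and 107 reads, and batch 2 had 197 and 633. NDUFB10 had 24.3 RPM in siCtrl and 44.8, 61.7, 64.5 and 45.4 RPM in the KDs, which all lay above it, but 12.9 and 14.6 RPM in batch 2, where the log2 ratio was 0.18 (−0.35 to 0.71).

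Complex III showed no member past 2-fold in siStar-PAP, siPAPα or the library labelled siPAPγ, and 1 in the double KD, the core protein gene UQCRC1 (−1.06), named here after its values were seen. UQCRQ had 1289 RPM in siCtrl, 1077, 900, 946 and 759 RPM in the KDs, and 342 and 362 RPM in batch 2. UQCRH had 450 RPM in siCtrl, 435, 844, 528 and 576 RPM in the KDs, and 21.0 and 37.7 RPM in batch 2. UQCRB, which binds near the ubiquinone site, had 80.4 RPM in siCtrl, 118, 127, 84.4 and 75.8 RPM in the KDs, and 131 and 170 RPM in batch 2. The changes of UQCRH in siPAPα, 0.91 (0.86 to 0.95), and of UQCRQ in the double KD, −0.76 (−0.80 to −0.73), were wider than counting error and stayed within 2-fold.

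In complex V the genes of the c subunit parted. ATP5G1 had 29.7 RPM in siCtrl, against 34.6 in siStar-PAP, 132 in siPAPα, 118 in siPAPγ as labelled and 160 in the double KD, and 83.4 and 82.8 RPM in siCtrl and siStar-PAP of batch 2. The libraries in which canonical PAPs were targeted were thus high and both siStar-PAP libraries lay near their siCtrl, with log2 ratios of 2.15 (1.99 to 2.32), 1.99 (1.82 to 2.16) and 2.43 (2.27 to 2.60) in the former and of 0.22 and −0.01 in the latter. ATP5G2 had 1696 RPM in siCtrl, 4047, 4132, 2388 and 3809 RPM in siStar-PAP, siPAPα, siPAPγ as labelled and the double KD, and 4545 and 5444 RPM in batch 2. Its log2 ratio was 1.26, 1.29, 0.49 and 1.17, and 0.26 in batch 2. ATP5G3 had 17.5 RPM in siCtrl and 13.2 to 16.1 RPM in the KDs, and 15.6 and 16.2 RPM in batch 2, so it stayed within 2-fold in all 5 comparisons. The interval of ATP5G1 in siPAPα lay above that of ATP5G2 (1.26 to 1.31), and both exclude the value of ATP5G3 (−0.13). ATP5SL, which encodes no subunit, had 2939 RPM in siCtrl, 1629, 1379, 1304 and 1387 RPM in the KDs, and 110 and 97.4 RPM in batch 2. Over all members, 45 stayed within 2-fold in all 5 comparisons, 15 were past it downward and 8 upward in at least 1, and 66 had more than 50 reads in every pair, while 5 members, ATP5L2, COX6B2, COX7A1, NDUFA4 and NDUFC1, had so many in none.

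**Figure D2:**
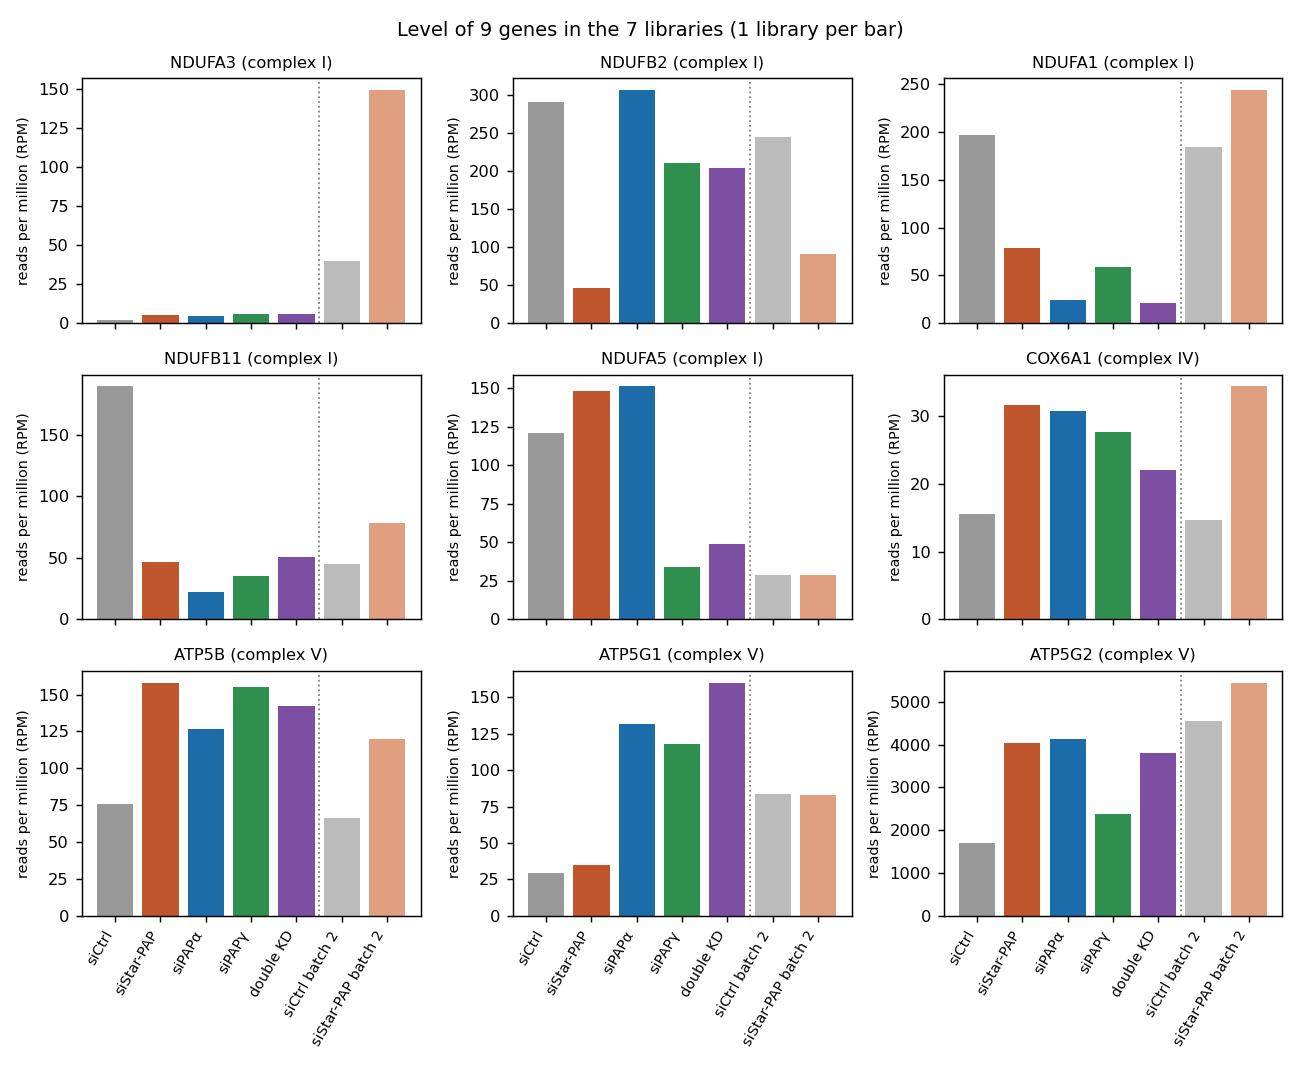
Level in RPM (linear axes from 0, with a scale of its own for each gene) of NDUFA3, NDUFB2, NDUFA1, NDUFB11, NDUFA5, COX6A1, ATP5B, ATP5G1 and ATP5G2 in the 7 libraries, 1 library per bar and so without error bars, with batch 2 to the right of the dotted line. NDUFA1 is counted at an intronic PAS left of the dotted line and at the 3′-most PAS right of it. ATP5G1 stands at 118 to 160 RPM in siPAPα, the library labelled siPAPγ and the double KD against 29.7 RPM in siCtrl, and NDUFB2 is low in siStar-PAP of both batches, at 46.3 and 90.1 RPM.

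siStar-PAP and siCtrl are the only conditions with a library in each batch, and they were fitted together to ask which changes were larger than the spread between the batches. With edgeR's quasi-likelihood test, batch as a block and Benjamini-Hochberg adjustment over 11878 genes, 148 genes (1.25%) rose and 128 (1.08%) fell. Of 75 members tested, 3 rose and 1 fell, and 22 had an unadjusted p under 0.05, as did 1776 genes. NDUFA3 rose by a log2 fold change of 1.96 (SE 0.36, edgeR adjusted p = 0.00603), in 2 of 2 batches. COX6A1, a regulatory subunit of complex IV, had 15.6 RPM in siCtrl and 31.6 RPM in siStar-PAP of batch 1 and 14.7 and 34.4 RPM in batch 2, and rose by 1.48 (SE 0.36, edgeR adjusted p = 0.0301). ATP5B, the catalytic β subunit of the ATP synthase, had 75.9 and 158 RPM in batch 1 and 66.0 and 120 RPM in batch 2, and rose by 1.32 (SE 0.33, edgeR adjusted p = 0.0386). Fold changes of this fit are scaled by TMM factors and not by the PASS totals behind RPM. For these 3 genes they lie above the log2 ratios of RPM in both batches.

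NDUFB2, a membrane arm subunit of complex I, fell. It had 290 RPM in siCtrl and 46.3 RPM in siStar-PAP of batch 1 and 244 and 90.1 RPM in batch 2, and its log2 fold change was −1.69 (SE 0.35, edgeR adjusted p = 0.0120). The other KDs did not show this size, with 306 RPM in siPAPα, 210 RPM in siPAPγ as labelled and 204 RPM in the double KD, at log2 ratios of 0.08, −0.47 and −0.51. For the genes that rose in siStar-PAP the other KDs were also above siCtrl, COX6A1 with 30.8, 27.7 and 22.1 RPM and ATP5B with 127, 155 and 142 RPM. The difference between KDs was not tested, since the others have 1 library each. The 4 calls rest on 1 residual degree of freedom. They were absent without the block, where edgeR called 0 genes and gave 54 an unadjusted p under 0.05, and with PASS read totals as library sizes only NDUFB2 was called, while the adjusted p of NDUFA3, COX6A1 and ATP5B became 0.0699, 0.164 and 0.165.

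**Figure D3:**
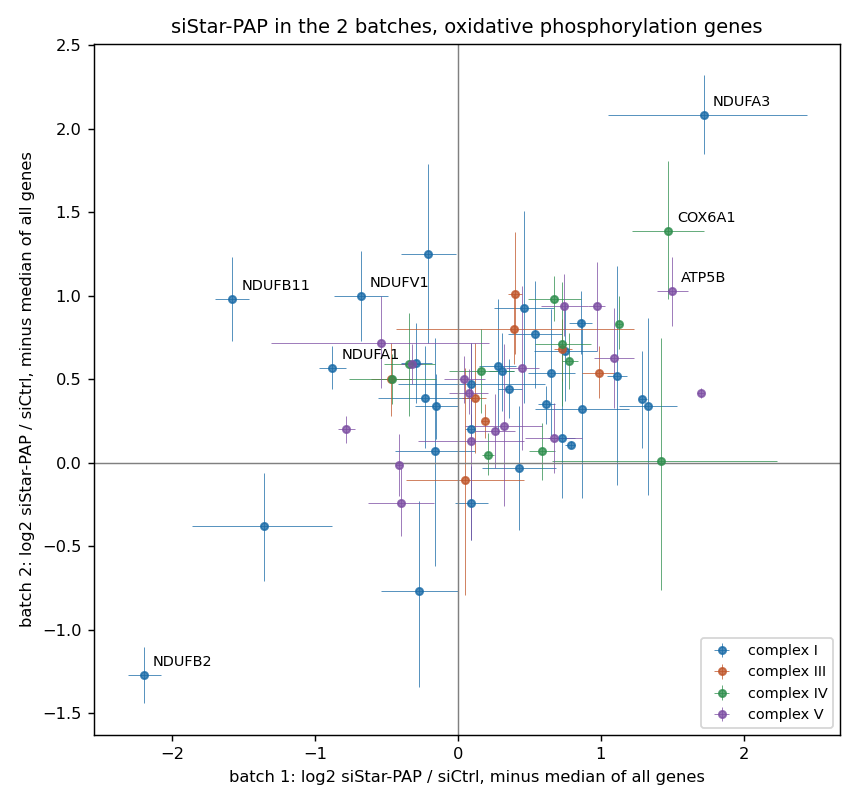
Log2 ratio of RPM, siStar-PAP over siCtrl, minus the median of all genes, in batch 1 (x axis) and batch 2 (y axis) for the 67 members with more than 50 reads in both pairs, 1 point per gene coloured by complex, with 95% counting intervals as thin bars. The grey lines at 0 are the all-gene medians, and 45 members lie above both and 5 below both.

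Both batches placed 50 of these 67 members (74.6%) on the same side of the all-gene median, where 65.3% of 6542 genes were. The median absolute difference between the 2 batches' log2 ratios, each taken from its all-gene median, was 0.41 for members and 0.51 for all genes, and it exceeded 1 for 7 members (10.4%) and for 20.8% of genes.

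Use of PASs within a gene was tested by comparing the reads of a PAS with those of the other PASs of the gene in 2 libraries, which compares those libraries and not the conditions. By Fisher's exact test with Benjamini-Hochberg adjustment over all PASs, the share of 48 of 93 member PASs differed in siStar-PAP (47.3% of all PASs tested), of 56 of 91 in siPAPα (48.2%), of 44 of 89 in the library labelled siPAPγ (36.5%), of 58 of 101 in the double KD (47.0%) and of 12 of 79 in siStar-PAP of batch 2 (12.8%). These PASs belonged to 24 of 31, 26 of 32, 22 of 32, 26 of 36 and 8 of 34 genes. When siStar-PAP was fitted in both batches with edgeR's diffSpliceDGE, 0 of 12363 PASs were called (0%) and 0 of 71 member PASs, of which 2 had an unadjusted p under 0.05, as did 393 of all PASs. The lowest was that of UQCRB (unadjusted p = 0.0355 in the edgeR fit). On simulated counts this fit found 0 of 200 PASs changed 4-fold, so its lack of calls cannot decide whether PAS use changed.

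The direction within a gene was described by the share of the downstream one among the reads of the 2 most read PASs of the 3′-most exon, a measure chosen after the data were seen. In siStar-PAP this share was lower by at least 10 percentage points in 5 and higher in 4 of 21 members, where 23.2% of 5232 genes were lower and 23.7% higher. In siPAPα 7 were lower and 5 higher of 22 (19.9% and 28.6% of genes), and in the library labelled siPAPγ 7 lower and 2 higher of 23 (21.0% and 23.0%). The double KD had 9 lower and 5 higher of 25 (17.2% and 28.3%) and siStar-PAP of batch 2 had 2 lower and 1 higher of 20 (15.6% and 17.2%). ATP5J and NDUFS1 were lower and NDUFA2 and NDUFV3 higher in all 4 comparisons that share siCtrl of batch 1, and none of these 4 moved by this much in batch 2.

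NDUFA5 and UQCR11, a small subunit of complex III, were the members whose reads moved toward the upstream PAS in the library labelled siPAPγ, in the double KD and in siStar-PAP of batch 2. Sites between which the reads moved are printed with the signal in capitals, from hg19 and on the transcribed strand, which is the minus strand for both genes, to show which signal precedes each.
NDUFA5 downstream PAS, chr7:123181083-123181112: AATAAAattacatgtgttttcgccttccta
UQCR11 upstream PAS, chr19:1598048-1598077: gcacgttgcATTAAAcctcactgaaacctg
UQCR11 middle PAS, chr19:1597818-1597847: cacccacacgtagtggcttaaagcaacgaa
UQCR11 downstream PAS, chr19:1597168-1597197: aAATAAAaatgaacaggtataaaaagagaa
All lie in annotated UTRs, and the middle PAS of UQCR11 has neither signal within 40 nt.

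The downstream PAS of NDUFA5, 1028 nt past the upstream one, had 91.2% of the gene's reads in siCtrl, against 90.0% in siStar-PAP, 87.6% in siPAPα, 73.0% in the library labelled siPAPγ and 75.9% in the double KD, and 64.4% and 33.6% in siCtrl and siStar-PAP of batch 2. Its share fell by Fisher's exact test in siPAPγ as labelled (adjusted p = 7.24e-20), in the double KD (9.39e-22) and in batch 2 (5.49e-05), and in siPAPα by 3.56 points (0.00126), and did not pass in siStar-PAP of batch 1 (0.319). The siCtrl libraries of the 2 batches themselves differed more than did siCtrl of batch 1 and any KD compared with it. The siPAPγ-labelled library and the double KD were also those with the low total level of NDUFA5, whereas in batch 2 the total did not differ beyond counting error.

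The upstream PAS of UQCR11 had 19.2% of reads in siCtrl, against 21.8% in siStar-PAP, 22.8% in siPAPα, 38.4% in the library labelled siPAPγ and 38.9% in the double KD, and 22.0% and 50.3% in batch 2. By Fisher's exact test the share rose in siPAPγ as labelled (adjusted p = 4.39e-36), in the double KD (2.67e-40) and in siStar-PAP of batch 2 (1.77e-05), and by 3.61 points in siPAPα (0.00505). The middle PAS, 230 nt downstream, held nearly all other reads in batch 1. In batch 2 the site 880 nt downstream held 43.4% of reads in siCtrl and 25.5% in siStar-PAP.

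UQCRC2, the other core protein of complex III, had more of its reads at an upstream PAS in siStar-PAP of batch 1. It, NDUFV3 and NDUFB6 lie outside the rule for named genes and were chosen after their values were seen. The 3′-most PAS of UQCRC2 had 82.5% of 97 reads in siCtrl, against 34.6% of 107 in siStar-PAP, 93.9% in siPAPα, 95.3% in siPAPγ as labelled and 98.4% in the double KD. The PAS listed as intronic had 13.4% in siCtrl and 50.5% in siStar-PAP, 4.75% and 4.70% in siPAPα and siPAPγ as labelled, and 0 of 192 reads in the double KD, which allows a share of up to 1.56%. Its share rose in siStar-PAP (adjusted p = 2.81e-07, Fisher's exact test) as that of the 3′-most PAS fell (1.08e-10). In batch 2 the 3′-most PAS had 97.9% of 47 reads in siCtrl and 84.8% of 33 in siStar-PAP, which did not pass (adjusted p = 0.243, Fisher's exact test). The PAS that rose in batch 1 is not listed in batch 2, where the remaining reads lay at other PASs listed as intronic. The sites printed below, on the plus strand, have AATAAA, and the annotation ends a transcript at each, within an exon at the first and in the UTR at the second.
UQCRC2 PAS listed as intronic, chr16:21976825-21976854: aggtaccAATAAAacatattttgaaatgtg
UQCRC2 3′-most PAS, chr16:21994644-21994673: aaagtcAATAAAacattctgtttaagtgtt

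UQCRB also has a PAS listed as intronic, with 39.3% of reads in siCtrl, against 64.0% in siStar-PAP, 47.8% in siPAPα, 37.2% in siPAPγ as labelled and 38.0% in the double KD. Its share rose in siStar-PAP (adjusted p = 5.56e-33) and siPAPα (3.49e-05) by Fisher's exact test. In batch 2 the shares were 2.56% and 5.40%, which did not pass (adjusted p = 0.0621, Fisher's exact test).

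Other moves were between neighbouring sites of 3′-most exons. NDUFA2, a subunit of the complex I matrix arm, had 41.1% of reads at its downstream PAS in siCtrl and 59.1%, 62.1%, 52.2% and 70.7% in siStar-PAP, siPAPα, siPAPγ as labelled and the double KD, but 91.0% and 89.2% in batch 2. The downstream share rose in all 4 KDs by Fisher's exact test (adjusted p = 5.97e-15 in the double KD and 0.0192 in siPAPγ as labelled). ATP5J, coupling factor 6 of the ATP synthase stalk, has a pair of PASs 45 nt apart, of which the upstream one had 36.8% of reads in siCtrl and 56.5%, 58.5%, 47.6% and 51.3% in the KDs, and 7.35% and 9.21% in batch 2. NDUFS1, the largest core subunit of complex I, had 47.6% of all its reads at its main downstream PAS in siCtrl and 24.1% to 35.9% in the KDs, but 18.3% and 26.8% in siCtrl and siStar-PAP of batch 2, which did not pass (adjusted p = 0.614, Fisher's exact test). NDUFV3 had 25.3% at its downstream PAS in siCtrl and 39.3%, 39.4%, 37.3% and 46.2% in the KDs, and 5.54% and 4.43% in batch 2. For NDUFA2, ATP5J and NDUFV3 all 4 KDs compared with siCtrl of batch 1 stood on the same side of it, and the siCtrl libraries of the 2 batches lay farther apart than the batch 2 pair.

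Shares of 1 PAS each of NDUFC2, NDUFB6 and ATP5G3 also differed from siCtrl of batch 1 by Fisher's exact test other than for ATP5G3 in siStar-PAP, and those of NDUFB6 and ATP5G3 did not pass in batch 2. The PAS of NDUFC2 at position 77780738 of chromosome 11 had 9.75% of reads in siCtrl and 22.4%, 26.4% and 25.3% in siStar-PAP, siPAPα and siPAPγ as labelled. In the table of the double KD, where fewer PASs of the gene are listed, it had 12.7% and 37.3%. In batch 2 it had 0 of 114 reads in siCtrl and 2 of 125 in siStar-PAP. The PAS of NDUFB6 at position 32553767 of chromosome 9 had 13.5% of reads in siCtrl and 21.7%, 33.5%, 28.6% and 34.2% in the KDs, and 39.1% and 31.8% in batch 2. The PAS of ATP5G3 at position 176042872 of chromosome 2 had 65.5% of reads in siCtrl and 71.4%, 87.0% and 78.2% in siStar-PAP, siPAPα and siPAPγ as labelled, and 72.2% and 68.1% in batch 2. Its change in siStar-PAP of batch 1 did not pass (adjusted p = 0.271, Fisher's exact test).

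**Figure D4:**
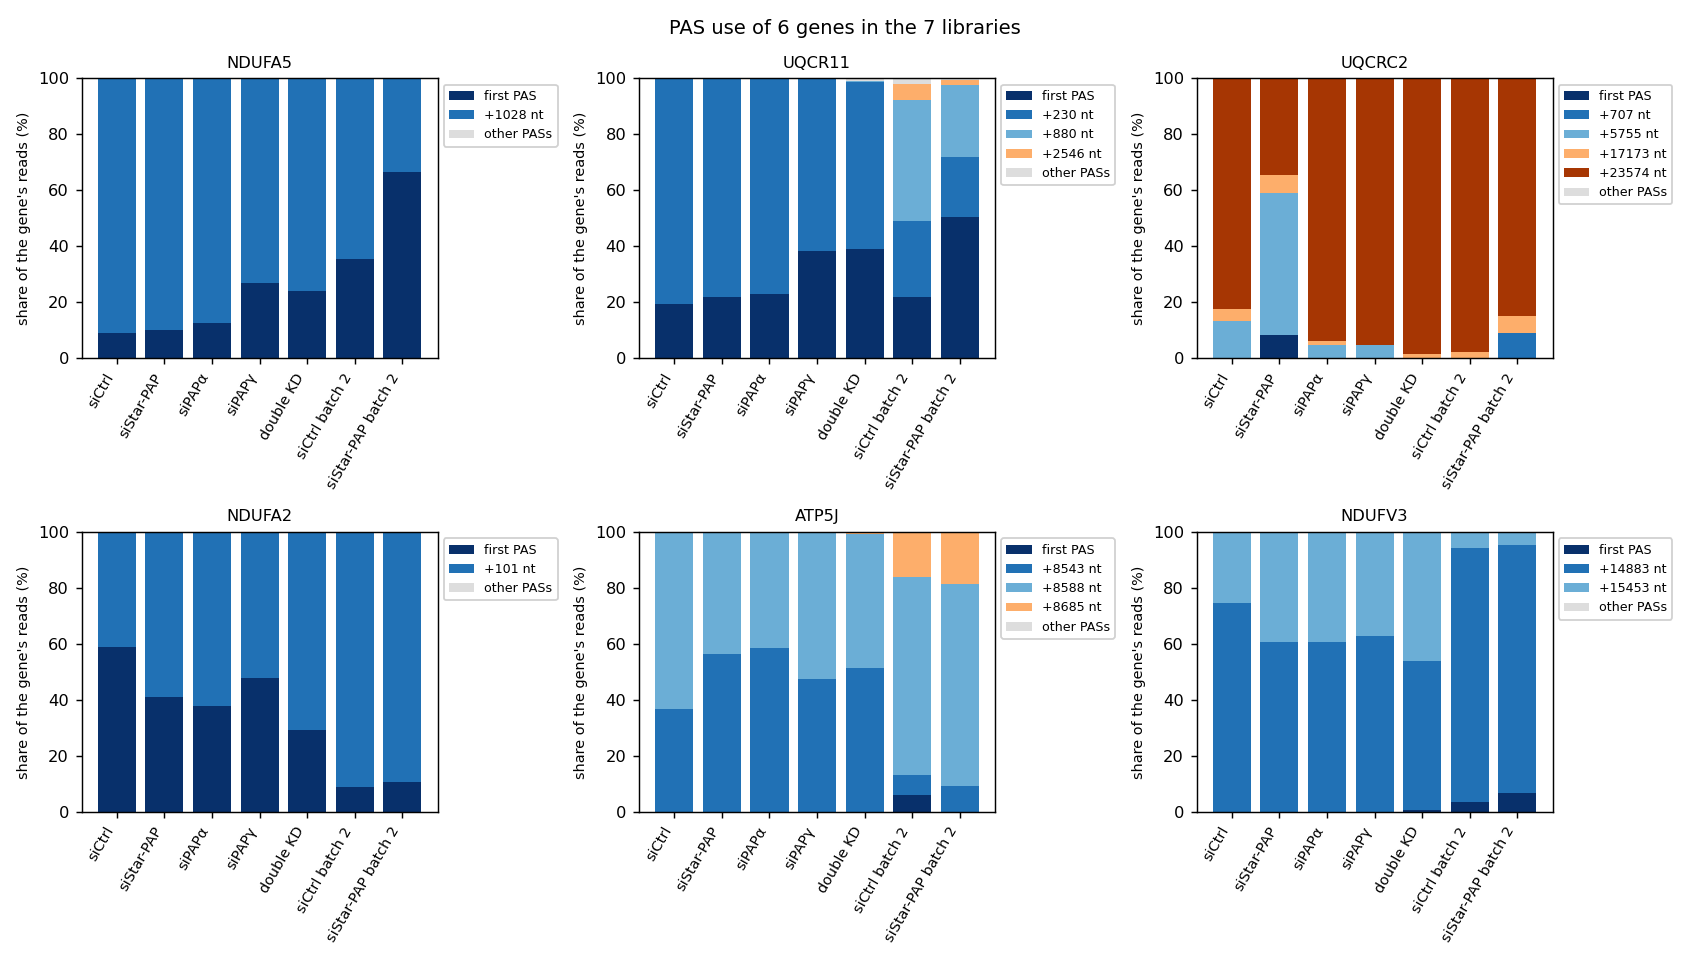
Share of a gene's sense reads (%) at each PAS in the 7 libraries for NDUFA5, UQCR11, UQCRC2, NDUFA2, ATP5J and NDUFV3, with distances in nt from the first PAS and 1 library per bar. The upstream PAS of UQCR11 grows from 19.2% in siCtrl to 38.9% in the double KD and from 22.0% to 50.3% in batch 2, and the intronic PAS of UQCRC2 takes 50.5% in siStar-PAP of batch 1.

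For some members the level differed more between the batches, made by different protocols, than between any KD and its siCtrl. Between the siCtrl libraries of the 2 batches, 13 of 74 members (17.6%) differed by over 8-fold, as did 15.0% of 9570 genes. NDUFS5 had 2030 RPM under 3′READS and 41.2 RPM under 3′READS+, a log2 difference of −5.62, COX7C 3567 and 111 RPM (−5.00), ATP5SL 2939 and 110 RPM (−4.74) and UQCRH 450 and 21.0 RPM (−4.42), and NDUFB4, named after its values were seen, differed by −4.67. Between the siStar-PAP libraries of the 2 batches the gap was likewise large, at −6.25 for NDUFS5, −5.02 for COX7C, −4.06 for ATP5SL and −3.53 for UQCRH. In all, 8 members were lower and 4 higher by over 8-fold in batch 2 in both the siCtrl and the siStar-PAP pair. Batch and protocol cannot be told apart here. Ratios to siCtrl are taken within a protocol, and whether this removes the gap in full was not tested. Among members, the gap of the siCtrl pair and that of the siStar-PAP pair differed by a median of 0.52 and by up to 2.84 in log2.

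Sites of 3 of these members and of the UQCRH copy were read from hg19, with the signal in capitals, to show what was counted.
NDUFS5, chr1:39500258-39500287, plus strand: tgtgtaaaAATAAAggattgctccatccta
COX7C, chr5:85916554-85916583, plus strand: atatgtttgtcAATAAActtatgacgtgaa
UQCRH, chr1:46782419-46782448, plus strand: catctaAATAAAagttctatgatctgcaaa
UQCRHL, chr1:16133664-16133693, minus strand: agttctgtgatctgcaaaaaaaaaaaaaaa
As UQCRHL is a near-identical copy, reads of these 2 genes may be split uncertainly. UQCRHL had 23 reads in siCtrl of batch 1, 8 of them at a site in an annotated UTR and the others at sites 12035 to 18258 nt past the gene and outside annotated genes, and 333 reads in siCtrl of batch 2, all at the site shown, while UQCRH had 5147 and 106 reads.

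**Figure D5:**
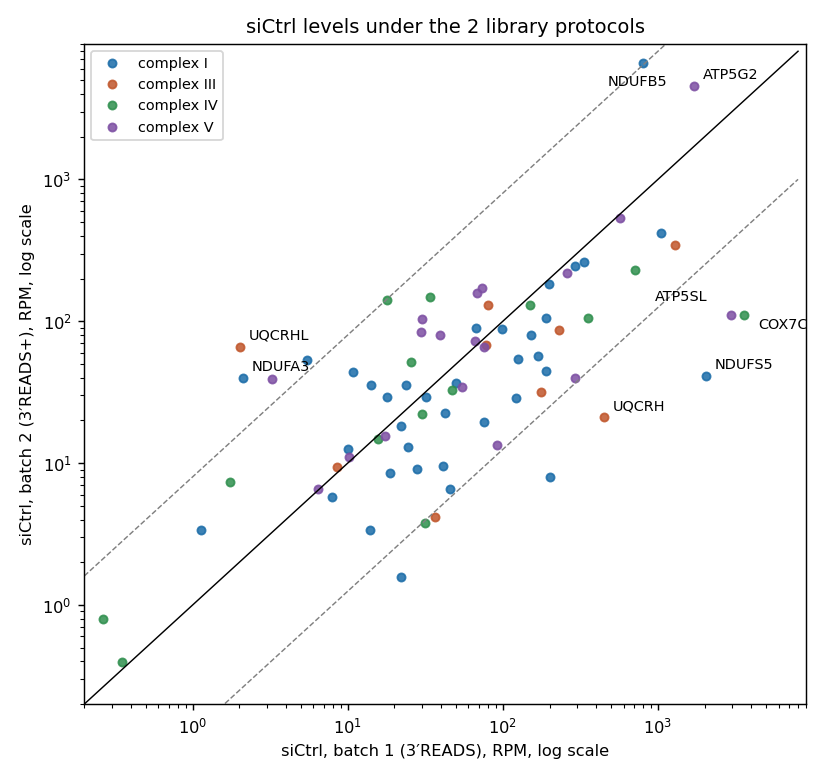
Level of each member in siCtrl of batch 1 by 3′READS (x axis) and of batch 2 by 3′READS+ (y axis), both in RPM on log scales, 1 point per gene coloured by complex and 1 library per axis. The solid line marks equal levels and the dashed lines 8-fold, with NDUFS5 at 2030 and 41.2 RPM and UQCRHL on the other side.

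Other genes of the pathway were followed by lists, beside the shares of all genes given above (26.2%, 22.1%, 20.7%, 26.5% and 11.7% lower, and 4.44%, 8.50%, 5.67%, 6.98% and 3.55% higher). Of complex II and the electron carriers, 0 were past 2-fold lower and 1 higher of 7 in siStar-PAP, 1 and 3 of 8 in siPAPα, 0 and 0 of 6 in the library labelled siPAPγ, 0 and 1 of 8 in the double KD and 0 and 0 of 6 in batch 2. SDHD, a membrane anchor of complex II, was highest in siStar-PAP (log2 ratio 1.71), siPAPα (2.40) and the double KD (1.98). Assembly factors, of which 29 of 40 were listed, had 6 lower and 2 higher of 26 in siStar-PAP, 2 and 0 of 27 in siPAPα, 2 and 0 of 25 in siPAPγ as labelled and in the double KD, and 2 and 2 of 25 in batch 2. In siStar-PAP the lowest was LYRM7 of complex III assembly (−2.60) and the highest COX16 of complex IV assembly (1.88). The 12 regulators had 3 lower of 8 in siStar-PAP, siPAPα and the double KD, 2 of 8 in siPAPγ as labelled and 1 of 8 in batch 2, and 0 higher in each. POLRMT, the mitochondrial RNA polymerase, was lowest in siStar-PAP (−2.67), siPAPα (−2.65) and siPAPγ as labelled (−2.02), and TFAM, which packages mitochondrial DNA, in the double KD (−2.20).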

How the data were processed

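Total RNA of the 7 HEK293 libraries was sequenced from the 3′ end. After alignment to hg19 (Bowtie2), the authors retained unique alignments that carried untemplated Ts, merged sites within 24 nt and deposited, in 3 tables, the raw read counts of each PAS of a RefSeq gene without normalization. siCtrl of batch 1 also stands in the table with the double KD. Per-sample columns left unused numbered 0.

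Sense reads were summed per gene and divided by the study's PASS totals. A gene was past 2-fold with more than 50 reads in the pair. Clopper-Pearson intervals (95%) of ratios cover counting error only, since reads carry no molecular identifiers. PAS use was tested two-sided for genes with at least 20 reads per library and PASs with at least 5 reads in the pair, where the methods name another program. siStar-PAP in both batches was fitted with edgeR 4.0.16 (TMM, quasi-likelihood, batch as a block, 1 residual degree of freedom) in R 4.3.3; DESeq2 1.42.0 was an alternative. Same-numbered siCtrl and siStar-PAP libraries are paired by the batch in their labels. On simulated counts for the siStar-PAP comparison in both batches, the gene fit found 132 of 200 genes given a 4-fold change and called 3 others, out of 11878, and diffSpliceDGE 0 of 200 PASs changed 4-fold among 12363, and 39 of 200 changed 16-fold. Fisher's exact test recovered 174 of 200 for siStar-PAP in batch 1 and called PASs in 8 unchanged genes, with 26385 PASs tested. Those counts were simulated with counting error only, so they do not measure false calls from other spread between real libraries.

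Named members were the 2 most read per complex, those called by edgeR or diffSpliceDGE, the 2 highest and 2 lowest ratios of each KD (at least 50 reads in both libraries), the 2 genes with the largest called PAS shift of each KD (at least 100 reads), those past 2-fold alike in all 5 comparisons, the alternative-subunit genes and the members that encode no subunit. The members and lists were chosen with earlier results of these data known. PAS sequence and annotation are from the GRCh37 reference with GENCODE. A named member and a site sequence are not reported here.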

Additional observations from a re-analysis of the deposited data

Results flagged for a closer look

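Members for which siStar-PAP stood on opposite sides of the all-gene median in the 2 batches were looked for, with counting intervals on both sides that exclude it, and 11 were found. The share of all genes that meet this rule was not counted. A difference between the batches of over 1 was found for 10.4% of members and 20.8% of all genes, so such differences are not particular to the members. For NDUFB11 the log2 ratio minus the all-gene median was −1.58 in batch 1 and 0.98 in batch 2, which differ by 2.56. The difference between batches was 1.68 for NDUFV1, 1.46 for NDUFB7 and 1.45 for NDUFA1, whose reads lay at an intronic PAS in batch 1 and at the 3′-most PAS in batch 2. These differences between the batches were not tested, since each batch has 1 library per condition. The other members of this kind were UQCRC1, ATP5A1, COX6C, COX4NB, ATP5I, NDUFS7 and NDUFV3, with differences of 0.49 to 0.98.

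Reads antisense and upstream of members, which the comparisons above leave out, numbered 3 in siCtrl of batch 1 at 3 sites, against 19 in siStar-PAP, 13 in siPAPα and 30 in the library labelled siPAPγ. The log2 ratio was 2.13 in siStar-PAP (counting interval 0.36 to 4.53) and 2.95 in the library labelled siPAPγ (1.26 to 5.31), where all antisense sites together had −0.52 and −0.69. In siPAPα it was 0.98 (−0.88 to 3.43), in the double KD −0.19 and in siStar-PAP of batch 2 −0.89. For the double KD 6 sites are listed, with 26 reads against 18 in the same siCtrl library of batch 1. The values thus depend on which sites are listed. The few reads limit these values to counting error between libraries.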

How the results depend on the processing

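The distance of the members' median from that of all genes kept its direction in all 5 comparisons in the 30 values recomputed under 6 alternatives (at least 1 read in each library, more than 200 reads in the pair, 1 read added, PASs in 3′-most exons only, subunits only, and the top 25% of genes as reference). Counts of members past 2-fold stayed within 1.5 times of the value given in 31 recomputations and not in 9. They came to 17 in siStar-PAP and 7 in its batch 2 with TMM factors, to 17 and 9 with DESeq2 size factors, and, with 1.5-fold as the limit, to 31 in siStar-PAP, 27 in siPAPα, 26 in the library labelled siPAPγ, 28 in the double KD and 17 in batch 2. Member PASs with a share changed by at least 10 points numbered 29, 29, 25, 30 and 7 in the same order, and 15 other counts of PASs stayed within 1.5 times. In the fit of both batches, DESeq2 called 7 members, among them all 4 of edgeR, and added ATP5E, ATP5G2 and COX7C. PASS read totals left 1 call, NDUFB2, and the fit with no replicate block 0 calls, so all 4 calls rest on pairing siStar-PAP with the siCtrl of its own batch. With the block left out, diffSpliceDGE again called 0 PASs. Leaving out a batch leaves 1 library per condition and no test. The measure was then the log2 ratio of RPM in the remaining batch minus the all-gene median, not a fold change of the fit. It was 1.72 to 2.08 for NDUFA3, −2.20 to −1.27 for NDUFB2 and 1.39 to 1.47 for COX6A1. For ATP5B it differed from the edgeR fold change by less than the SE. Of the recomputed log2 ratios of named members, 233 stayed within their counting interval and 267 did not. Depth limits members under 10 RPM, such as NDUFA3 in batch 1, and the KD check of TUT1 and PAPOLG.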
